A study of Mus musculus with 6 samples.

Results

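Lysophosphatidic acid (LPA) is a small signalling lipid that acts on cells from outside, and the 9 genes described here govern how it is made, sensed and removed: the phospholipid phosphatases Plpp1, Plpp2 and Plpp3, the secreted enzyme Enpp2 and the receptors Lpar1, Lpar2, Lpar3, Lpar4 and Lpar6. They were taken by gene name from the single-gene probe sets of an expression array, with the probe set of the highest mean over all 6 arrays where a gene had several. Of the 9, 7 had such a probe set, 1 each, among 22180 genes measured. Enpp2 was not analysed here, and the 2 probe sets that name Lpar6 also name Rb1, so that Lpar6 was not analysed here either. The family was chosen by the knockout minus wild type difference of Plpp1, one of the genes called in these data, and the probe sets by their mean signal. The Plpp1 difference is therefore a description and carries no test.

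The cells were mouse embryonic fibroblasts, connective tissue cells grown from embryos, with the genotype Pax7-/- (3 arrays) or Pax7+/+ (3 arrays), both of the strain F1 (C57Bl6N x 129Sv). Pax7 encodes a paired-box transcription factor known for its role in muscle stem cells. Both genotypes grew in DMEM with FBS and antibiotics, a serum medium that itself carries LPA, and were collected at confluence. The labels number the arrays of each genotype as biological replicates 1 to 3 and do not say from which embryos or cultures they came, so p-values measure the spread between these samples. Neither the structure of the Pax7 allele nor the age of the embryos is stated in the labels.

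As background, Enpp2 (autotaxin) releases LPA from lysophosphatidylcholine outside the cell. LPA receptors are G protein-coupled receptors of 2 separate branches: Lpar1, Lpar2 and Lpar3 resemble the sphingosine-1-phosphate receptors, whereas Lpar4 and Lpar6 resemble the P2Y nucleotide receptors. The Plpp enzymes are membrane proteins with their active site facing the outside of the cell or the lumen, where they remove the phosphate of LPA, phosphatidic acid and sphingosine-1-phosphate. In fibroblasts LPA is known for driving contraction, migration and growth through G proteins.

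Values are log2 signals after RMA (robust multi-array average), and a difference is knockout minus wild type on that scale, so that 1 unit is a doubling. The 95th percentile of the signals of 1390 smell and pheromone receptor genes (olfactory and vomeronasal), which fibroblasts should not express, served as the background level of each array. It was 5.43, 5.34 and 4.63 on Pax7-/- replicates 1, 2 and 3 and 5.44, 5.34 and 4.65 on Pax7+/+ replicates 1, 2 and 3. Both replicate 3 arrays stood apart: over genes they correlated at 0.992 with each other, and at 0.814 to 0.844 with the remaining 4 arrays, which correlated at 0.988 to 0.990 with one another. The probe set of Pax7 itself read 6.17, 5.95 and 5.05 in Pax7-/- and 6.14, 5.65 and 4.88 in Pax7+/+, a difference of 0.16 (limma SE 0.44, adjusted p = 1.0; SE 0.10, adjusted p = 0.804 with the replicate number as a block). The knockout array read higher in every pair. All 6 readings lay above background, but those of Pax7+/+ replicates 2 and 3 were close to the levels of 5.34 and 4.65. The position of the probe set relative to the change in the allele is unknown here, so it does not check the genotype. The cell type label reads ESCs, whereas the titles name fibroblasts. On single arrays the median percentile among genes ran from 98.7 to 99.2 for the 8 fibroblast markers and from 31.7 to 41.1 for the 7 embryonic stem cell markers, of which 1 lay above background on all 6 arrays.

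Of the members with a sequence window, the starts of 3 are shown because they had the largest differences between genotypes in each direction (Plpp3 and Plpp2) or because the window holds most copies of the core letters bound by homeodomains (Lpar4). Pax7 carries a homeodomain, a class of DNA-binding domain known to contact the letters TAAT. Each line gives the 250 bases before a RefSeq transcription start (assembly GRCm38.p6), 5′ to 3′ on the strand of the gene, with every ATTA or TAAT in capitals. The windows are chr4:105157097-105157346 on the plus strand for Plpp3, chr10:79533788-79534037 on the minus strand for Plpp2 and chrX:106920375-106920624 on the plus strand for Lpar4.
Plpp3: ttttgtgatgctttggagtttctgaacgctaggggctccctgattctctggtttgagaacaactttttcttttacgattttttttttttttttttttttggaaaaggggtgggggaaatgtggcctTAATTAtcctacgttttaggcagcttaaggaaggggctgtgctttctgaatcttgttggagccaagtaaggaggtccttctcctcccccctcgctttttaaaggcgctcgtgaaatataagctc
Plpp2: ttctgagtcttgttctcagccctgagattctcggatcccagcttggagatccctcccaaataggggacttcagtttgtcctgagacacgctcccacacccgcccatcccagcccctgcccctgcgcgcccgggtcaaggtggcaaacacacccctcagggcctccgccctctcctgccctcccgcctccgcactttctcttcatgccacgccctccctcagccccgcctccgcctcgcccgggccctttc
Lpar4: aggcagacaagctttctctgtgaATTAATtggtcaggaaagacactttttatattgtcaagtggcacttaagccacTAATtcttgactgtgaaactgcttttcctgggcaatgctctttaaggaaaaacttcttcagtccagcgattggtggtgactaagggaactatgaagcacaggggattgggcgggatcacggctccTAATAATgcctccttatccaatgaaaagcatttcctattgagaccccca

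The Plpp3 window holds the core 2 times in 1 overlapping run that begins 124 bases before the start, in a stretch of 42.4% G and C. The Plpp2 window holds it 0 times and has 65.6% G and C. The Lpar4 window holds it 5 times, with starts 227, 225, 174, 49 and 46 bases before the first transcribed base. ATTA and TAAT are each other's reverse complement, so the search covers both strands, and overlapping copies were counted separately. Of 32851 windows of this length in the RefSeq table, 54.9% hold at least 1 copy. The longer palindromes TAATNNATTA and TAATNNNATTA, to which pairs of such domains are known to bind, are in 0.38% and 0.46% of windows and in 0 of the 9 windows of the members (Lpar1 has 3; Lpar2, Lpar3 and Lpar6 have 1 each). A match of letters is a description and not a binding site. Plpp1 and Enpp2 had no window in the table.

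The 3 phosphatases differed between genotypes in both directions: Plpp1 and Plpp3 were lower in all 3 replicate pairs of Pax7-/- cells and Plpp2 was higher in all 3. Plpp1 was lower by 1.02 on average, the difference by which the family was chosen, and neither Plpp3 nor Plpp2 passed the threshold over the 6 arrays, with or without the replicate number as a block. Of the receptors, Lpar1 and Lpar4 were slightly lower in all 3 pairs without passing, and Lpar2 and Lpar3 were not above background. Of the 7 measured genes, 4 were lower throughout the 3 pairs and 1 was higher, against 13.8% of all genes in each direction. This count includes Plpp1, on which the choice of the family rests. It also depends on joining arrays by replicate number, a pairing that the labels do not state. In deviations from the genotype means, knockout replicate 2 correlated at 0.910 with wild type replicate 1 and at 0.895 with wild type replicate 2.

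Plpp1 encodes the broadly expressed phosphatase first known as PAP2a or LPP1. Its log2 signal (probe set 17289928) was 7.31, 7.06 and 8.86 in Pax7-/- replicates 1, 2 and 3, against 8.04, 8.48 and 9.77 in Pax7+/+ replicates 1, 2 and 3. Replicate 3 was the highest array of each genotype, and the genotypes overlap because knockout replicate 3 lies above wild type replicates 1 and 2. Within each pair the knockout array was lower, by -0.72, -1.43 and -0.91, so that the second pair differed most. The means were 7.74 ± 0.97 in Pax7-/- and 8.76 ± 0.90 in Pax7+/+ (SD, n = 3 each), a difference of -1.02, or 2.03-fold less. Its limma SE was 0.66 without a block (95% interval -2.64 to 0.60) and 0.13 with the replicate block (95% interval -1.32 to -0.72). The intervals do not allow for the choice of Plpp1 by this difference, so they are no test of it. By mean difference Plpp1 was number 7 from the lowest of 22180 genes. Every array read it at least 1.71 above background.

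Plpp3 encodes the phosphatase LPP3, which is required in the mouse embryo for vessel formation and body patterning. Its log2 signal (probe set 17416234) was 7.76, 7.58 and 9.06 in Pax7-/- replicates 1, 2 and 3, against 8.15, 8.57 and 9.60 in Pax7+/+ replicates 1, 2 and 3. As for Plpp1, replicate 3 was high in both genotypes, the genotypes overlap, and the second pair differed most (-0.39, -0.99 and -0.54). The means were 8.13 ± 0.81 in Pax7-/- and 8.77 ± 0.74 in Pax7+/+ (SD, n = 3 each), and the difference was -0.64, or 1.56-fold less. This did not pass over all genes (limma, SE 0.55, adjusted p = 1.0; with the replicate block SE 0.12, 95% interval -0.92 to -0.36, adjusted p = 0.168). It passed with the block only without replicate 1 (-0.76, adjusted p = 0.0106), where 98 genes did. Plpp3 was number 44 from the lowest difference of 22180 genes.

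Plpp2 encodes LPP2, the third enzyme of the group. Its log2 signal (probe set 17242578) was 6.25, 6.47 and 9.35 in Pax7-/- replicates 1, 2 and 3, against 5.79, 5.996 and 8.88 in Pax7+/+ replicates 1, 2 and 3. The knockout array was the higher one of every pair, and the 3 differences lay close together at 0.46, 0.48 and 0.47 (SD 0.0069, n = 3 pairs). This closeness holds for arrays joined by number, and replicates 1 and 2 could be joined otherwise. The genotypes overlap, since both replicate 3 arrays lie far above the other 4. The means were 7.36 ± 1.73 in Pax7-/- and 6.89 ± 1.73 in Pax7+/+ (SD, n = 3 each), a difference of 0.47, or 1.39-fold. It did not pass (limma, SE 1.19, adjusted p = 1.0; with the replicate block SE 0.09, 95% interval 0.27 to 0.67, adjusted p = 0.156). Plpp2 was number 49 from the highest difference of 22180 genes. On knockout replicates 1 and 2 it lay 0.82 and 1.13 above background, and on wild type replicates 1 and 2 only 0.35 and 0.66 above it.

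**Figure D1:**
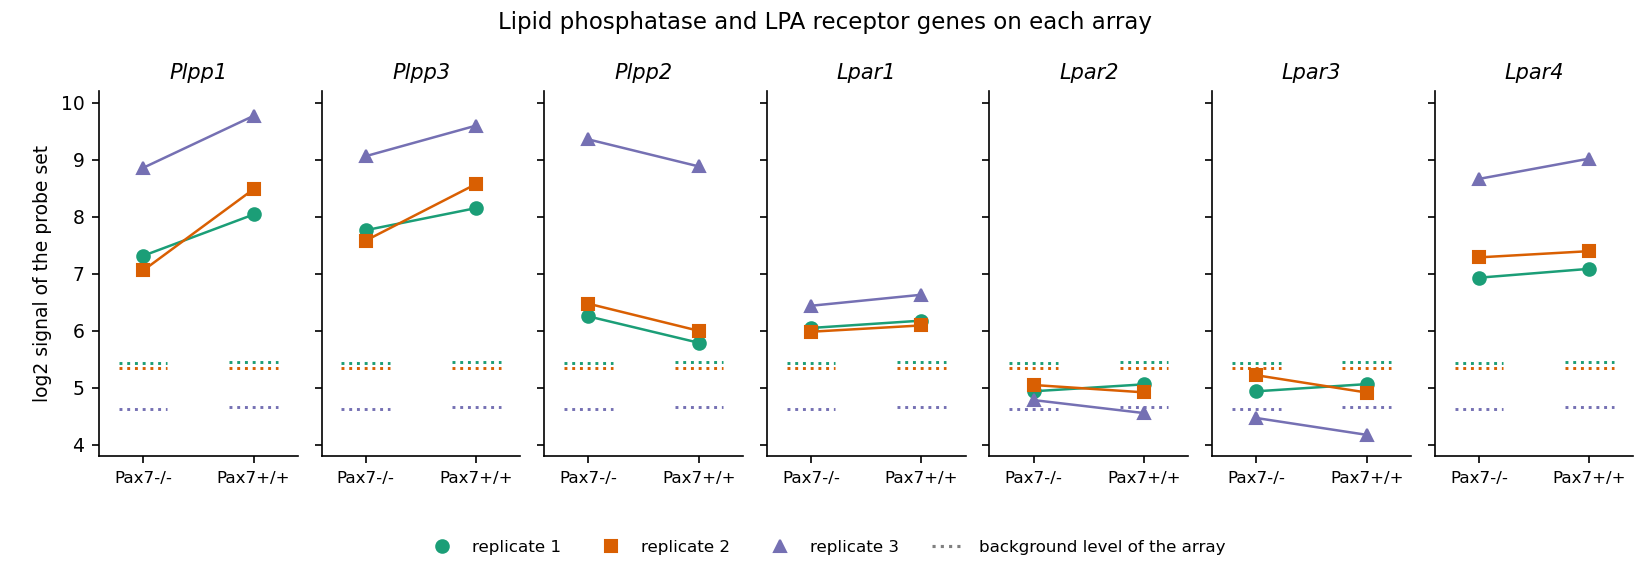
Log2 signal of the 7 measured genes (vertical axis) in Pax7-/- and Pax7+/+ fibroblasts, with a point per array, a line joining arrays of the same replicate number and dotted bars for the background level of each array. Each Plpp1 and Plpp3 line is lower at its Pax7-/- end and each Plpp2 line is higher there, replicate 3 is highest for these 3 genes in each genotype, and Lpar2 and Lpar3 lie at or near background.

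Without a block, limma called 0 of 22180 genes (0.0%), and 15 genes had an unadjusted p under 0.05, of which 13 were lower and 2 higher, with 0 of the 7 members among them. With the replicate block it called 17 genes (0.0766%), 15 lower (0.0676%) and 2 higher (0.00902%), and 0 of the 6 members besides Plpp1. Plpp1 is among the 17. The family was chosen by that call, which the fit without a block does not make, so nothing is read from it. In no member did the genotypes separate without overlap, as they did in 1.41% of genes. The 2 fits give the same differences and differ only in their errors, because the block takes up the distance between replicate 3 and the other arrays. That distance, replicate 3 minus the mean of replicates 1 and 2 over both genotypes, was 2.99 for Plpp2, 1.67 for Lpar4, 1.59 for Plpp1, 1.31 for Plpp3 and 0.46 for Lpar1, against a median of -0.11 over all genes. For the 3 phosphatases it exceeded the genotype difference. The replicate 3 arrays also had a wider spread of signals (interquartile range 2.52 and 2.56) than the other arrays (1.88 to 1.94). Their medians were 4.62 and 4.65, against 4.97 on each of the others. The distance was not corrected for this.

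Lpar1 encodes the LPA receptor best known in fibroblasts. Its log2 signal (probe set 17425686) was 6.05, 5.98 and 6.44 in Pax7-/- replicates 1, 2 and 3, against 6.17, 6.09 and 6.63 in Pax7+/+ replicates 1, 2 and 3. The values of both genotypes lie close together and overlap, with each knockout array a little below its wild type partner (-0.13, -0.11 and -0.19). The difference of -0.14 did not pass (limma, SE 0.23, adjusted p = 1.0; with the replicate block SE 0.09, 95% interval -0.35 to 0.06, adjusted p = 0.811).

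Lpar4 encodes a receptor of the P2Y-like branch. Its log2 signal (probe set 17537112) was 6.93, 7.28 and 8.66 in Pax7-/- replicates 1, 2 and 3, against 7.08, 7.39 and 9.02 in Pax7+/+ replicates 1, 2 and 3. Replicate 3 was again the high array in each genotype, and the pairs differed by -0.16, -0.11 and -0.36. Knockout replicate 2 (7.28) lay above wild type replicate 1 (7.08), so the shared sign depends on how the arrays are numbered. The difference of -0.21 did not pass (limma, SE 0.68, adjusted p = 1.0; with the replicate block SE 0.10, 95% interval -0.42 to 0.01, adjusted p = 0.753).

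Lpar2 and Lpar3, the other receptors of the Lpar1 branch, were at or near background, so that no size of difference is given. Lpar2 (probe set 17501748) read 4.94, 5.05 and 4.78 in Pax7-/- and 5.06, 4.92 and 4.55 in Pax7+/+ replicates 1, 2 and 3, above background on 1 of the 6 arrays (knockout replicate 3). Lpar3 (probe set 17403509) read 4.94, 5.22 and 4.47 in Pax7-/- and 5.06, 4.91 and 4.17 in Pax7+/+, above background on 0 of the 6. Their replicate 3 arrays were the lowest of each genotype, as was the background level itself.

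**Figure D2:**
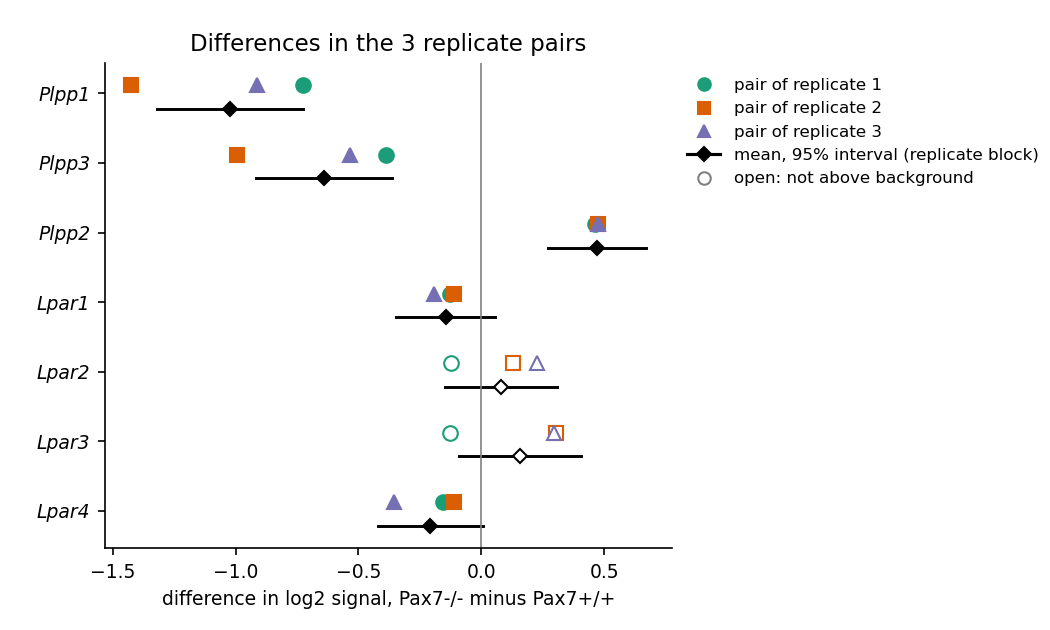
Difference in log2 signal, Pax7-/- minus Pax7+/+, in each of the 3 replicate pairs (coloured symbols), with the mean and its 95% interval from limma with the replicate block (black diamonds and bars); open symbols mark genes not above background. The 3 pairs of Plpp2 coincide near 0.47, those of Plpp1 spread from -1.43 to -0.72, and the bars of Lpar1 and Lpar4 reach across 0.

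Averaged over pairs, the genotype differences of the phosphatases were of similar size in replicates 1 and 2 and in replicate 3. Plpp1 was chosen by its difference on these same arrays, so its values here are a description. From replicates 1 and 2 alone, with the block, the difference was -1.08 for Plpp1, -0.69 for Plpp3 and 0.47 for Plpp2. These averages join unlike pairs for Plpp1 (-0.72 and -1.43) and Plpp3 (-0.39 and -0.99), and like ones for Plpp2 (0.46 and 0.48). The replicate 3 pair gave -0.91, -0.54 and 0.47 for the same genes, with 1 array per genotype and hence no test. Leaving out 1 replicate pair moved Plpp1 between -1.17 and -0.82, Plpp3 between -0.76 and -0.46 and Plpp2 between 0.47 and 0.48. With a single array left out, replicate 3 weighs differently in the 2 genotypes. Plpp1 then lay between -1.58 (without knockout replicate 3) and -0.52 (without wild type replicate 3), also moving over 1.5 times to -0.68 without knockout replicate 2. Plpp3 lay between -1.10 (without knockout replicate 3) and -0.23 (without wild type replicate 3). Plpp2 turned to -0.53 without knockout replicate 3 and to -0.08 without wild type replicate 1, and reached 1.47 without wild type replicate 3.

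**Figure D3:**
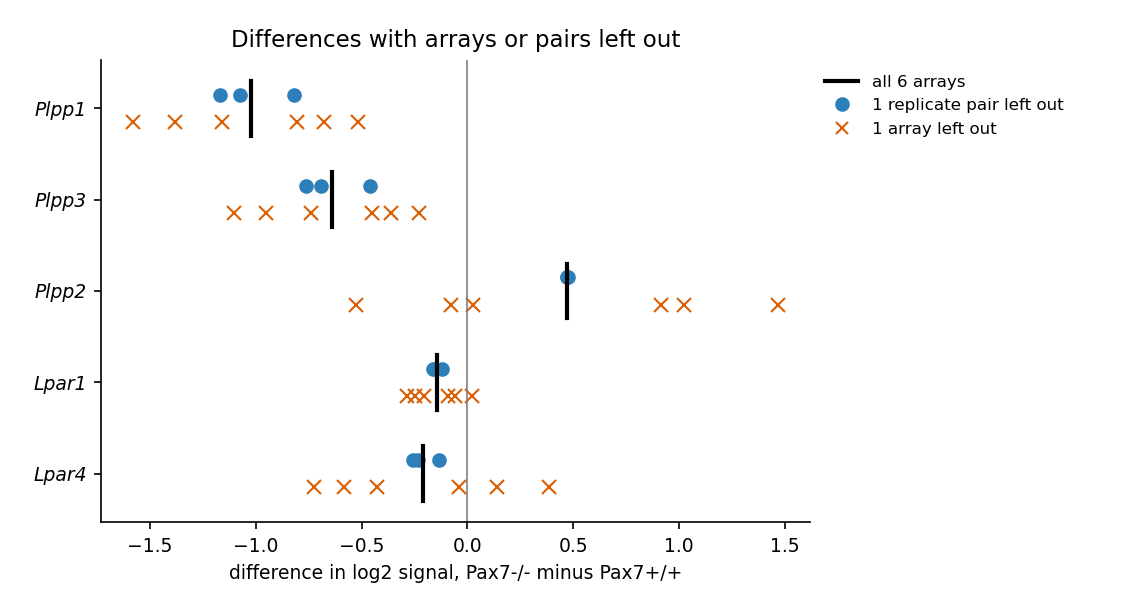
Difference in log2 signal, Pax7-/- minus Pax7+/+, of the 5 genes above background, with all 6 arrays (black bars), with 1 replicate pair left out (blue points, replicate block) and with 1 array left out (orange crosses, no block). The points stay near the bars, while the crosses of Plpp2 run from -0.53 to 1.47 and those of Lpar4 from -0.73 to 0.39.

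Marker genes of fibroblasts and of other cell types were read beside these differences. Of the 8 fibroblast markers, 4 were lower and 1 was higher in every pair, against 13.8% of all genes in each direction. Their median difference was -0.11, within a range of -0.40 (Col3a1) to 0.14 (Fn1). Their summed linear signal ranged from 13159 to 15288 in Pax7-/- and from 13106 to 15207 in Pax7+/+. Of 4 neural markers measured, 0 were lower and 1 was higher in every pair (Nes, 0.45). The 5 endothelial markers, a cell type in which Plpp3 is known to be abundant, summed to 113.3 to 176.2 in Pax7-/- and 94.4 to 168.7 in Pax7+/+, and 0 of them lay above background on all 6 arrays. Fat cell markers likewise had 0 of 6 above background on every array. By the rule used for the members, 3 fat cell markers and 1 endothelial marker were above background in both genotypes. On replicate 3 of Pax7-/- and Pax7+/+, Fabp4 read 6.84 and 7.26 and Pparg 5.80 and 6.31. The 5 smooth muscle and pericyte markers summed to 1731 to 3171 in Pax7-/- and 1525 to 3149 in Pax7+/+, with a median difference of 0.12 and 2 of them higher in all 3 pairs. Of the 45 markers measured in 8 lists, limma called 0 with the block, where 6 (13.3%) had an unadjusted p under 0.05, 3 lower and 3 higher, against 6.73% of all genes. The part of cell composition in the Plpp1 difference was not tested, and in a bulk sample fewer cells of a type cannot be told apart from less RNA per cell.

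Genes whose values over the 6 arrays were most like those of Plpp1 were sought by the root-mean-square distance of values centred on each gene's mean, among 10885 other named genes above background, where the median distance was 0.68. The nearest was C1qtnf3, a secreted protein of the C1q and TNF-related family, at 0.11, with pair differences of -0.71, -1.12 and -1.04. Next were the scavenger receptor Colec12 (distance 0.20, mean difference -0.70), Cped1 (0.22, -0.74), the retrotransposon-derived Rtl3 (0.22, -0.65) and Cemip, which takes part in the breakdown of hyaluronan (0.23, -0.64). Plpp3 followed Plpp1 nearly as closely, at 0.23, whereas Lpar4 lay at 0.46, Lpar1 at 0.71 and Plpp2 at 1.01. All 5 nearest genes, like Plpp1, read higher on the replicate 3 array of each genotype than on its other arrays. They were picked by closeness to these same 6 values, so this and their lower knockout values follow from the choice. For Lpar1 the nearest were Isg20, an RNA-degrading exonuclease (0.03), Lamtor4, of the Ragulator complex on lysosomes (0.03), and Tacc1, a centrosome-associated protein (0.04), with mean differences of -0.15, -0.13 and -0.14. The median distance to Lpar1 was 0.48, and these differences likewise follow from the choice.

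**Figure D4:**
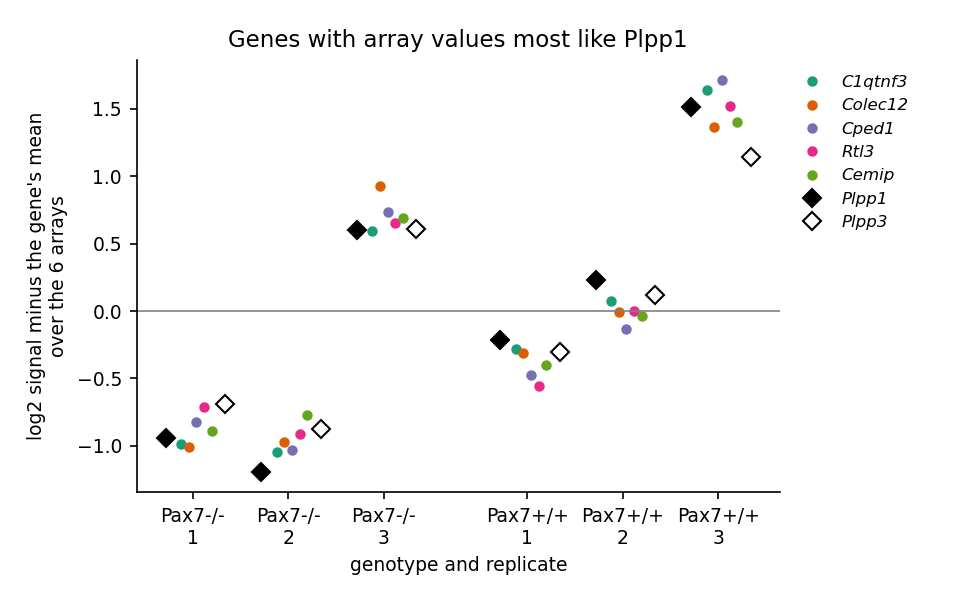
Log2 signal minus each gene's mean over the 6 arrays (vertical axis) for Plpp1, Plpp3 and the 5 other genes nearest to Plpp1, by genotype and replicate number. All 7 genes are lowest in Pax7-/- replicates 1 and 2 and highest in Pax7+/+ replicate 3. For the 5 nearest genes this follows from their being picked by these values.

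The wider pathway showed no called gene. Of 94 listed genes in 6 groups, 88 were measured and 71 lay above background in both genotypes. Limma called 0 of the 88 in either fit. At an unadjusted p under 0.05 there were 0 of them without the block and 6 (6.82%) with it, against 6.73% of all genes. Of the 88, 10 (11.4%) were lower and 16 (18.2%) higher throughout the pairs, against 13.8% of all genes in each direction. Their median difference was -0.0004, and that of all genes -0.0018.

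Among 15 other phosphatases and related proteins, 2 read lower and 2 read higher in every pair, and the median was 0.09. Plpp5, an enzyme of the same superfamily, was at -0.04 (0.06, -0.26 and 0.08 in the 3 pairs), and Plpp6, which acts on isoprenoid diphosphates, at 0.14. Sgpp1, the intracellular phosphatase of sphingosine-1-phosphate, was at 0.19 with pairs of 0.40, -0.30 and 0.48. Lpin1, a phosphatidic acid phosphatase of triglyceride synthesis, was at 0.15. The differences of the 13 above background spanned -0.19 to 0.27, inside the values of Plpp3 (-0.64) and Plpp2 (0.47).

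Among 28 measured enzymes that make or use LPA and phosphatidic acid, 1 was lower and 4 were higher in every pair, and the median was 0.0012. The acyltransferases Agpat1 and Agpat2, which turn LPA into phosphatidic acid, were at -0.01 and 0.03. Gpam, which makes LPA inside the cell from glycerol-3-phosphate, was at -0.03, and Pld1, a phospholipase that makes phosphatidic acid, at 0.20 (-0.11, 0.36 and 0.34 in the 3 pairs).

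Of 8 other lysophospholipid receptors measured, 4 were above background. S1pr3, a sphingosine-1-phosphate receptor of mesenchymal cells, read lower in each knockout array than in its wild type partner, by -0.45, -0.41 and -0.29. Its mean difference of -0.38 did not pass (limma with the replicate block, SE 0.09, adjusted p = 0.347). S1pr1 and S1pr2 were at -0.02 and 0.15, each with both signs among its pairs. Of 5 genes of sphingosine-1-phosphate metabolism, Sphk1, the kinase that makes this lipid, was at 0.33 (0.15, 0.22 and 0.62 in the 3 pairs, adjusted p = 0.613 with the block) and Sgpl1, the lyase that degrades it, at -0.01.

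Below the receptors, 21 genes of G proteins and their effectors had a median of -0.0014, with 2 lower and 3 higher in every pair. Gna12 and Gna13, alpha subunits of G proteins, were at 0.02 and 0.13, the small GTPase Rhob at 0.26 (0.60, -0.08 and 0.27 in the 3 pairs) and the serum response factor Srf at -0.07. Of transcripts known to be induced by LPA, serum or the transcriptional regulators SRF or YAP, 11 were measured, with a median of 0.03. In every pair 2 were lower and 5 were higher, against 13.8% of all genes in each direction. Ccn1 and Ccn2, matricellular proteins, were at -0.05 and 0.11, and smooth muscle actin Acta2 at 0.03. Ankrd1, a nuclear ankyrin repeat protein named after its values were seen, was at 0.46 with pairs of 0.43, 0.45 and 0.51 (limma with the replicate block, adjusted p = 0.168). Besides Ccn2 and Ankrd1, those higher were Ptgs2 (0.28), Fos (0.24) and Egr1 (0.14), and those lower were Tagln (-0.07) and Il6 (not above background). These were also named after their values were seen, and they did not pass the threshold.

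**Figure D5:**
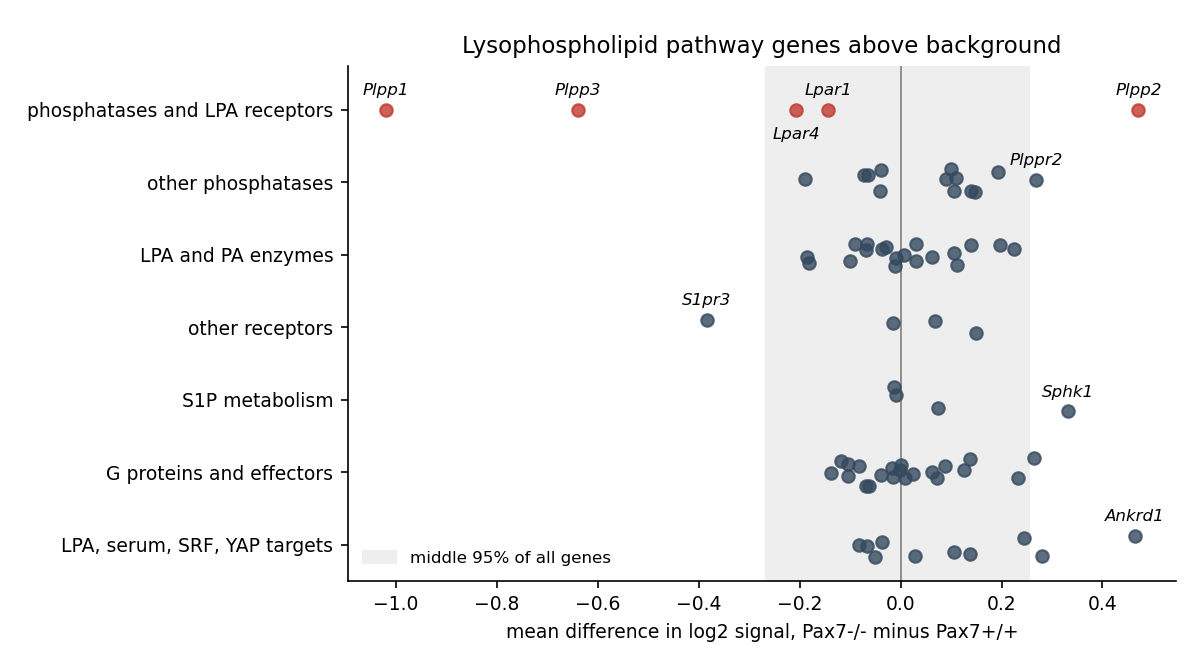
Mean difference in log2 signal, Pax7-/- minus Pax7+/+, of genes above background in both genotypes: the lipid phosphatases and LPA receptors (red) and 6 groups of other pathway genes (dark points), with the middle 95% of all genes in grey (-0.27 to 0.25). Plpp1, Plpp3 and Plpp2 lie outside the grey band, as do S1pr3, Sphk1, Ankrd1, Ptgs2, Plppr2 and Rhob.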

How the data were processed

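Total RNA of 6 fibroblast samples was hybridised to Affymetrix arrays. Per the submitters' processing notes, the authors made the deposited log2 signals with Partek and RMA. Their versions, settings and genome build are unknown here, and the log base was inferred from the values. Nothing was normalized further. For arrays, their number limits the precision.

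Of 41345 probe sets, the platform annotation gave 1 gene for 23521, several for 1814, and did not list 16010. Probe sets with 1 gene were used, and per gene that with the highest mean, which left 22180 genes. A gene whose 3 arrays of a genotype, or their mean, did not exceed the background level is called not above background there. Genotypes were compared with limma 3.58.1 in R 4.3.3 (lmFit, eBayes, two-sided, genotype as the only term) and Benjamini-Hochberg adjustment at 0.05 over all genes. SEs are limma's moderated ones. Deviations of equal-numbered arrays from their genotype means correlated at 0.920, 0.895 and 0.973 for replicates 1, 2 and 3, so a second fit took the number as a block. Only this second fit had its calls checked on simulated data, in which equal-numbered arrays shared their replicate effect by design. For the fit without a block only the simulated differences were checked. The pairing comes from the data and rests on replicate 3: replicates 1 and 2 of opposite genotype correlated at 0.898 and 0.910.

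The members and lists were chosen with earlier results of these data known. Named were all members, any list gene past the threshold, fixed genes of each list, and the genes nearest to Plpp1 (5) and Lpar1 (3). Enpp1 was named but not analysed here. Promoter sequences are from RefSeq (GRCm38.p6). Python 3.11.15 was used for counts and figures.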

Additional observations from a re-analysis of the deposited data

How the results depend on the processing

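No gene passed without a block under quantile normalization, a filter on dim genes, the mean of all probe sets of a gene or an intensity trend in the prior variance, nor without any single array. The calls came with a block: 17 genes and 1 member (Plpp1, -1.02) with the replicate block, and 19 genes and 1 member (Plpp1, -1.02) with replicate 3 against the others as a batch block. The family was chosen by the Plpp1 difference, so its calls are no support. Chosen after the data were seen, quantile normalization with the replicate block gave 21 genes and 1 member (Plpp1, -1.03), and the filter on dim genes with the block gave 34 genes of 12048 and 1 member (Plpp1, -1.02). With the replicate block and without replicates 1, 2 and 3, 98, 2 and 4 genes and 2, 0 and 0 members passed. The 2 members were Plpp1 and Plpp3. Plpp1 lay between -1.17 and -0.82. Over the 17 alternatives Plpp1 and Plpp3 kept their direction, but not all of these could change it. With no array left out, the replicate and batch blocks, the filter on dim genes and the intensity trend cannot change the difference. Nor can the mean of all probe sets, because each of these genes had 1. Leaving out a whole replicate pair could not either, because the fit then averages the remaining pairs, which had 1 sign in each of these genes. Only quantile normalization and leaving out single arrays could turn the direction. With single arrays left out, Plpp1 ranged from -1.58 to -0.52. The direction turned for Plpp2 without knockout replicate 3 (-0.53) and wild type replicate 1 (-0.08), within a range of -0.53 to 1.47. It turned for Lpar4 without knockout replicate 1 (0.14) and wild type replicate 3 (0.39), within -0.73 to 0.39, and for Lpar1 without wild type replicate 3 (0.021), within -0.29 to 0.021. These settings leave the genotypes with unequal shares of replicate 3. Quantile normalization moved Plpp2 to 0.60. Without a block it lowered the SE from 0.66 to 0.27 for Plpp1, from 0.55 to 0.17 for Plpp3 and from 1.19 to 0.83 for Plpp2. Lpar2 and Lpar3, not above background, were in every fit except those with the filter on dim genes, but no sizes are given for them. Enpp2 and Lpar6 were in no fit. Plpp2 was dim on replicates 1 and 2, and how far this limits its precision there was not tested.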
